A study of Mus musculus with 6 samples.

Results

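Eph receptors and ephrins were described in palmitate-treated C2C12 myotubes. The genes were 10 named members, of which 7 encode receptors (Epha2, Epha4, Epha7, Ephb2, Ephb3, Ephb4, Ephb6) and 3 encode ephrin ligands (Efna1, Efnb1, Efnb2). They were picked with the palmitate against BSA results of these arrays already known, so their differences between the groups are a description. A probe set was taken where the platform annotation gave it a member as its only symbol. In all, 18 of the 22690 probe sets on the array met this rule and covered 9 members, and Ephb2 was not analysed here.

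Eph receptors are a large family of receptor tyrosine kinases whose ligands, the ephrins, are themselves held on the surface of the neighbouring cell. Ephrins of the A class are tied to the membrane by a lipid anchor and ephrins of the B class span it, so that contact can send a forward signal into the receptor cell and a reverse signal into the ligand cell. The pathway is known for sorting cells, for repulsive guidance of axons, including motor axons that grow into limb muscle, and for the separation of arteries from veins.

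All samples were C2C12, an established mouse myoblast line that fuses into contractile myotubes when serum is lowered. Both groups were grown in 20% fetal bovine serum, differentiated in 2% horse serum for 5 days and then treated for 16 h. There were 3 control arrays, from myotubes given 1% bovine serum albumin (BSA), and 3 palmitate arrays, from myotubes given 500 µM palmitate, a saturated fatty acid that was bound to BSA before use. Replicates are numbered in the labels, but whether each was its own culture is not said there, so a p-value here reflects the spread among these samples and that spread may be technical. Since whole cultures were lysed, fewer cells of a type and less RNA per cell cannot be told apart. Both groups carried the markers of the labelled cell type, with the signal of Myog, a myogenic regulator, at 20501 ± 4912 on the BSA arrays and 19853 ± 499 on the palmitate arrays (SD, n = 3), and limma called 0 of 10 myotube markers (2 at an unadjusted p under 0.05).

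Values are MAS 5 signals on a linear scale, and a difference is the mean log2 signal of the palmitate arrays minus that of the BSA arrays, ± SE. A probe set was called where limma gave a Benjamini-Hochberg adjusted p under 0.05, over the 13575 probe sets whose mean log2 signal lay above the 40th percentile (a signal of 267.1). Probe sets under that level are termed dim. They were not tested in that fit, and where an SE is given for them it comes from a fit of all 22626 probe sets that were not controls. Of the members' 18 probe sets, 10 lay above the filter and 8 were dim. For each gene the brightest probe set, by mean log2 signal, was used, and on that basis 7 members were tested, while Epha7 and Efna1 were dim. Ephb6 and Ephb3 fell, Epha2 rose and the other 4 members tested did not pass. Over all genes, 20.2% passed, 7.92% as higher and 12.3% as lower.

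**Figure D1:**
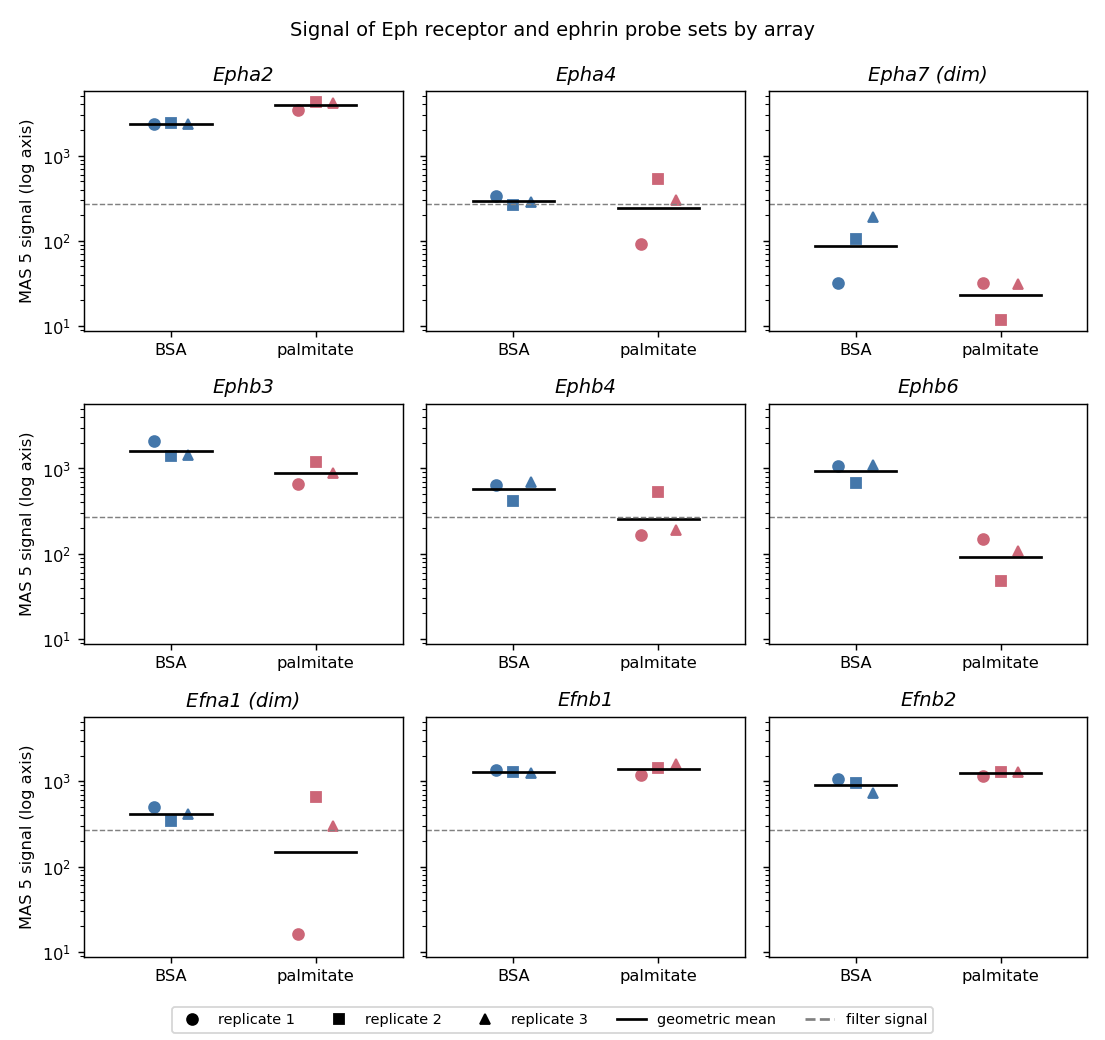
MAS 5 signal (log axis) of the brightest probe set of each of 9 members on the 3 BSA and 3 palmitate arrays, with the geometric mean of each group as a bar and the filter signal as a dashed line. Ephb6 lies above the filter on all BSA arrays and under it on all palmitate arrays, Epha2 is higher on every palmitate array, and Epha4, Ephb4 and Efna1 are widely spread with palmitate.

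The sequences around the starts of the 3 members that passed are shown so that their promoters can be set side by side. They were taken from RefSeq (build GRCm38.p6), plus strand in all 3 cases, from 250 bases before the start to 50 after it. Capitals mark the cAMP response element TGACGTCA and the GC box GGGCGG, or its complement CCGCCC.
Epha2 (chr4:141300971-141301270): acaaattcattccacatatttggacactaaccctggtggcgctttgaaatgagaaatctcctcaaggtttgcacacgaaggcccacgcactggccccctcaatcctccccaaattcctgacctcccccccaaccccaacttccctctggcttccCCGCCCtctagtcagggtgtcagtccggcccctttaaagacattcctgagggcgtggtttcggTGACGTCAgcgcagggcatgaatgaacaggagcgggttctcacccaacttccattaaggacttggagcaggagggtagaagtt
Ephb3 (chr16:21204545-21204844): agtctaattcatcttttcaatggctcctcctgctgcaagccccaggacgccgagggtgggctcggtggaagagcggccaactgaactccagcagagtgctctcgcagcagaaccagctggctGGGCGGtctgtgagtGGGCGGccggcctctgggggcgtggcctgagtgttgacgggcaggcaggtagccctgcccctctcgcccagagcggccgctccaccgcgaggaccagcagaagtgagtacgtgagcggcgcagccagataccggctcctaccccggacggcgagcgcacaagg
Ephb6 (chr6:41605261-41605560): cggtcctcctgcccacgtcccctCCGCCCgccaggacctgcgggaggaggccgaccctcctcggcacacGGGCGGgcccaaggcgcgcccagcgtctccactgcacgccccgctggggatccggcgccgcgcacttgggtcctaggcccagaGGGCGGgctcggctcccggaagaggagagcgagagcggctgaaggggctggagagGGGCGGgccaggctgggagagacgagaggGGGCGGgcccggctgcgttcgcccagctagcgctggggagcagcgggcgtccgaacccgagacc
The Epha2 promoter held 1 cAMP response element, 33 bases before the start, a match found in 1.79% of the 32851 RefSeq promoters of this length. Neither Ephb3 nor Ephb6 held it. The GC box matched 5 times in the Ephb6 promoter, 2 times in that of Ephb3 and 1 time in that of Epha2, and 35.7% of all promoters held at least 1 match. The AP-1 element TGANTCA was in none of these 3 windows (7.81% of all promoters). The E-box CANNTG was in the windows of Ephb3 and Ephb6 (72.3% of all promoters) and not in that of Epha2. All motifs were searched on both strands, and no matches overlapped in these windows. They are letters in a window and do not show that a factor binds there. In base composition, 76.3% of the Ephb6 window, 66.7% of the Ephb3 window and 54.7% of the Epha2 window was G or C, against a median of 52.7%.

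Among receptors of the A class, only Epha2 and Epha4 were tested, and Epha2 was called. Epha2 encodes the receptor that ephrin-A1 activates in many epithelia. Its signal was 2329.2, 2418.8 and 2329.2 on the BSA arrays and 3439.3, 4220.6 and 4161.1 on the palmitate arrays. All palmitate arrays lay above all BSA arrays, and the BSA arrays differed little from each other. The difference was 0.73 ± 0.16, or 1.66-fold. It no longer passed when the arrays were scaled to the hybridisation controls (0.48). These RNAs are added at the hybridisation step and were brighter on the palmitate arrays. Under this scaling the median over the probe sets tested was -0.27.

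Epha4, a receptor that guides motor axons in the mouse limb, had no settled direction. Its brighter probe set gave 331.9, 262.5 and 289 with BSA and 92.6, 529.8 and 303.3 with palmitate. The BSA arrays were close together, while palmitate held both the lowest and the highest of the 6 values. The difference was -0.25 ± 0.59 and became 0.45 without palmitate replicate 1. The other Epha4 probe set was dim, at 92.5 ± 126.2 with BSA and 71.7 ± 62.0 with palmitate (SD, n = 3).

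Epha7, a receptor reported to take part in the differentiation of mouse myoblasts, was dim on all 3 of its probe sets. The brightest gave 32.4, 105.2 and 192 with BSA and 32.2, 11.8 and 31.3 with palmitate. Its groups touched without overlapping, since BSA replicate 1 lay just above palmitate replicate 1; of all probe sets under the filter, 13.3% had groups that did not overlap. The other probe sets gave 72.7 ± 59.0 with BSA against 10.2 ± 9.21 with palmitate, and 42.2 ± 24.0 against 21.3 ± 10.4. In the fit of all probe sets the 3 differences were -1.93 ± 1.00, -3.19 ± 1.19 and -0.93 ± 1.00. All 3 were negative and did not pass in that fit, which called 9.9% of its probe sets, and signals this low carry little information on size.

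Among receptors of the B class, all 3 that could be measured were lower on average with palmitate, and Ephb6 and Ephb3 passed. Ephb6 encodes a receptor without kinase activity, which signals through other Eph receptors that it joins. Its signal was 1077.2, 670.9 and 1098.1 with BSA and 149.2, 48 and 108.5 with palmitate. The groups were far apart, and every palmitate value lay under the filter signal. Ephb6 thus passed the filter through its BSA signal, with a mean log2 signal of 9.85 with BSA and 6.52 with palmitate. The difference was -3.33 ± 0.49, or 10.1-fold, and it ranged from -3.68 to -2.86 on leaving out 1 array. Since the palmitate signals were dim the size is imprecise: with an offset of 100 added before the logarithm the difference was -2.38.

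Ephb3, a kinase-active receptor of the B class, gave 2109.2, 1412.9 and 1433.5 with BSA and 653.1, 1187.7 and 874.7 with palmitate. The groups did not overlap, but palmitate replicate 2 came close to the lower BSA arrays. The difference was -0.88 ± 0.26, or 1.85-fold. It passed narrowly, and the call was lost without BSA replicate 1 (-0.70), BSA replicate 2 (-0.98), palmitate replicate 1 (-0.67) or palmitate replicate 3 (-0.88), as well as without the filter or without the intensity trend of the variance model.

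Ephb4, the receptor of ephrin-B2 known as a marker of veins, gave 638.1, 418.3 and 692.1 with BSA and 163.9, 527.5 and 188.4 with palmitate. Palmitate replicate 2 lay among the BSA arrays, and the other palmitate arrays lay under all of them. The difference was -1.17 ± 0.46 and did not pass, but it passed at -1.70 without palmitate replicate 2, and after hybridisation control scaling (-1.43).

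Of the ligands, Efnb1 and Efnb2 were tested and did not pass. Efnb1, a transmembrane ephrin, had 3 probe sets above the filter. The brightest gave 1349.3, 1293.1 and 1266.9 with BSA and 1176.8, 1445.2 and 1582.6 with palmitate. These groups overlapped, with a difference of 0.095 ± 0.19. The second gave 644.1 ± 155.4 with BSA and 918.7 ± 303.7 with palmitate (SD, n = 3), a difference of 0.49 ± 0.30. The third gave 443.6, 247.8 and 430.6 with BSA and 582.3, 620.8 and 613.7 with palmitate, a difference of 0.74 ± 0.32, and its groups did not overlap. All 3 differences were positive as deposited, but that of the brightest probe set was -0.16 after hybridisation control scaling.

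Efnb2, the transmembrane ligand of Ephb4 and a marker of arteries, had probe sets that disagreed. The brightest gave 1059.9, 946.9 and 734.9 with BSA and 1151, 1284 and 1289.8 with palmitate, without overlap (0.46 ± 0.21). The second gave 738.5, 786.5 and 918.9 with BSA and 437.5, 687.6 and 969.1 with palmitate, with overlap (-0.29 ± 0.30). The remaining 2 were dim, with differences of -0.33 ± 0.64 and 1.64 ± 0.82 in the fit of all probe sets. Which transcript of Efnb2 each of them reads was not examined.

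Efna1, a lipid-anchored ligand of Epha2, was dim by its mean log2 signal because of a single array. Its brighter probe set gave 503, 344.4 and 417.8 with BSA and 16.3, 654 and 301.6 with palmitate. The other gave 101.7, 136.1 and 149.5 with BSA and 21, 594.4 and 131.2 with palmitate. On both, palmitate replicate 1 was the lowest of the 6 arrays and palmitate replicate 2 the highest. The difference of the brighter probe set was -1.50 ± 1.06 in the fit of all probe sets and 0.092 without palmitate replicate 1.

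Of the 7 members tested, the groups did not overlap for 4 (Epha2, Ephb3, Ephb6 and Efnb2), against 38.3% of all genes. As the members were chosen on this contrast, nothing is read from that count. The median difference of the 7 was -0.25, which is the value of Epha4, against -0.051 over all genes tested. For the same reason nothing is read from that median.

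**Figure D2:**
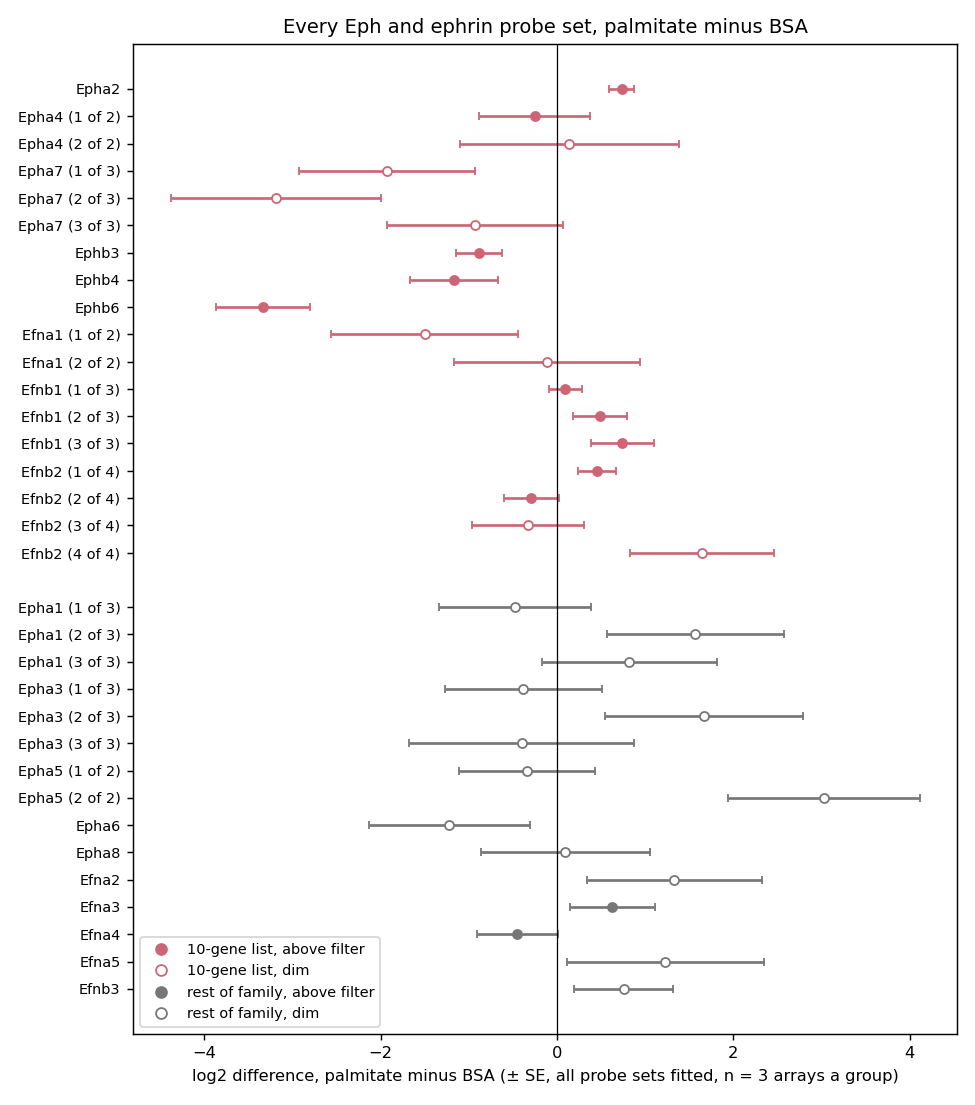
Difference in log2 signal, palmitate minus BSA, with its SE from the fit of all probe sets, for the 18 probe sets of the members (red) and the 15 of the rest of the family (grey), where filled points lie above the filter and open points are dim. Errors are near or above 1 for many dim probe sets, and Ephb6 is the filled point farthest from 0.

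The spread among palmitate arrays had a repeated form, which was noticed after the values were seen. Palmitate replicate 1 was the lowest and palmitate replicate 2 the highest of the 3 palmitate arrays on 9 of the members' 18 probe sets, those of Epha2, Epha4, Epha7, Ephb3, Ephb4, Efnb1 and Efnb2 with 1 each and of Efna1 with 2. Of all 22626 probe sets, 20.1% had that order, and 6 of the 15 probe sets of the rest of the family did. Ephb6 had the opposite order, as did the brightest probe set of Epha7 and a dim probe set of Efnb2. As a reading of RNA integrity, the log2 signal of the Gapdh control probe set at the 3' end minus that at the 5' end was taken. Palmitate replicate 2 stood out in it (-0.20, against 0.19 to 0.35 on the other 5 arrays). On that array the 5' signal was thus the higher, while palmitate replicate 1 had 0.19. The part of RNA integrity in these values was not tested.

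**Figure D3:**
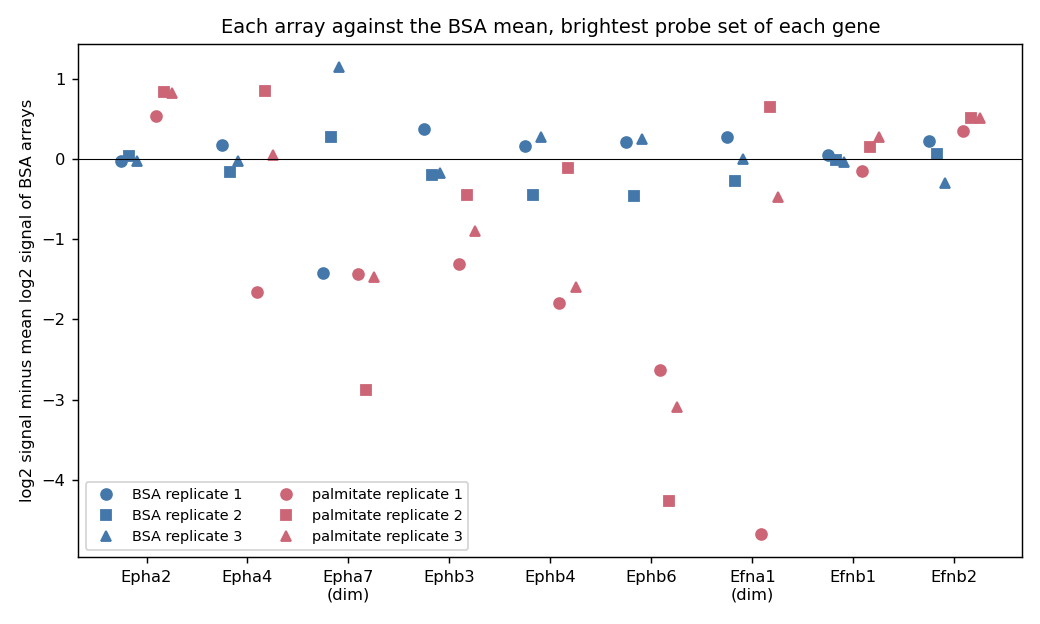
Log2 signal of each array minus the mean log2 signal of the BSA arrays, for the brightest probe set of 9 members, with replicates told apart by symbol. For Epha4, Ephb3, Ephb4 and Efna1 the palmitate arrays run from replicate 1 (circle, lowest) to replicate 2 (square, highest). For Ephb6 and Epha7 the order is the opposite.

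The other Eph and ephrin genes, listed whole and not by how they moved, gave no call. Of these 12 genes, 10 had a probe set and 2 lay above the filter, of which limma called 0 (0 at an unadjusted p under 0.05). Efna3, a lipid-anchored ephrin, had a signal of 234.6 ± 54.5 with BSA and 371.4 ± 119.8 with palmitate (SD, n = 3; difference 0.63 ± 0.43, limma adjusted p = 0.347). Efna4, of the same class, had 359.5 ± 10.0 and 278.2 ± 102.3 (-0.45 ± 0.42, limma adjusted p = 0.5). The receptors Epha1, Epha3, Epha5, Epha6 and Epha8 and the ligands Efna2, Efna5 and Efnb3 were dim throughout. Among those, the groups did not overlap for Efnb3 (121.3, 136.4 and 195.9 with BSA, 232.4, 228.7 and 293.5 with palmitate) nor for 1 of the 2 Epha5 probe sets (22.0 ± 25.0 against 110.5 ± 35.3, SD, n = 3). Against the 13.3% given above for probe sets under the filter, nothing is read from these, and neither passed in the limma fit of all probe sets (adjusted p = 0.49 and 0.114). Epha10 and Ephb1 were not analysed here.

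Genes that act next to Eph receptors and ephrins were mostly not called. Over the rest of the family and the 3 lists below, 6 of 42 genes above the filter passed, 1 higher and 5 lower, or 14.3% against 20.2% of all genes, and that difference in share was not tested. Of 25 kinases, adaptors, exchange factors and phosphatases of forward signalling above the filter, 3 fell and 0 rose (12%, list median -0.013). Tiam1, an exchange factor that activates Rac, had signals of 1065.6, 887.1 and 984.2 with BSA and 376.2, 487.1 and 551.4 with palmitate (-1.07 ± 0.25, limma adjusted p = 0.0116). Its groups were well apart. A second Tiam1 probe set was dim and went the other way (28.2 ± 17.6 with BSA and 127.0 ± 110.1 with palmitate, SD, n = 3; 1.96 ± 1.08, limma adjusted p = 0.327 in the fit of all probe sets). The call of the brightest was kept in all 14 alternatives in which it was tested, which do not include averaged probe sets (adjusted p 0.00192 to 0.0416). Pik3r1, the regulatory subunit of phosphoinositide 3-kinase (-0.94 ± 0.28, limma adjusted p = 0.0323), and the tyrosine kinase Abl1 (-0.80 ± 0.24, limma adjusted p = 0.0343) fell as well. Those calls were lost in 7 of 14 and 6 of 16 alternatives, with adjusted p up to 0.135 for Pik3r1 (without BSA replicate 3) and 0.12 for Abl1 (without palmitate replicate 1).

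Of 9 partners of ephrin-B tails above the filter, 1 rose and 1 fell, or 22.2% against 20.2% of all genes. Their median was 0.33, against -0.051 over all genes tested. Rgs3, a regulator of G protein signalling that binds ephrin-B tails, gave 2117, 1926.3 and 2023 with BSA and 2908.9, 3590.6 and 2598.3 with palmitate (0.57 ± 0.17, limma adjusted p = 0.0366). Its second probe set, at 330.4 ± 78.1 and 1118 ± 169.8 (SD, n = 3), rose 3.42-fold (limma adjusted p = 0.00101). The call of the brightest was lost in 9 of 16 alternatives, with adjusted p up to 0.468 under scaling to a second set of hybridisation controls, and its lowest difference there was 0.24. Ptpn13, a phosphatase that binds ephrin-B tails, gave 1243, 1285.5 and 1160.2 with BSA and 824.3, 428.2 and 477.7 with palmitate (-1.15 ± 0.27, limma adjusted p = 0.0111). The groups were well apart, but averaging with its dim second probe set brought the difference to -0.32 (adjusted p = 0.535).

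Genes of proteases that cut Eph receptors or ephrins, counting subunits, numbered 6 above the filter. Of these, Adam10, which sheds ephrins on contact, fell (16.7%, list median -0.40). Its brightest probe set gave 4150.7, 6082 and 6456.3 with BSA and 3854.1, 2993.1 and 3531.9 with palmitate (-0.67 ± 0.19, limma adjusted p = 0.0285). The 2 other Adam10 probe sets did not pass (limma adjusted p = 0.823 and 0.244), and the mean of all 3 gave 0.025 (adjusted p = 0.943). In all the call was lost in 7 of 16 alternatives, among them those without BSA replicate 2, BSA replicate 3, palmitate replicate 2 or palmitate replicate 3 (adjusted p up to 0.12). The 5 other genes, of which 4 encode parts of gamma-secretase, had differences from -0.43 (Psen2) to 0.059 (Ncstn) and did not pass.

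**Figure D4:**
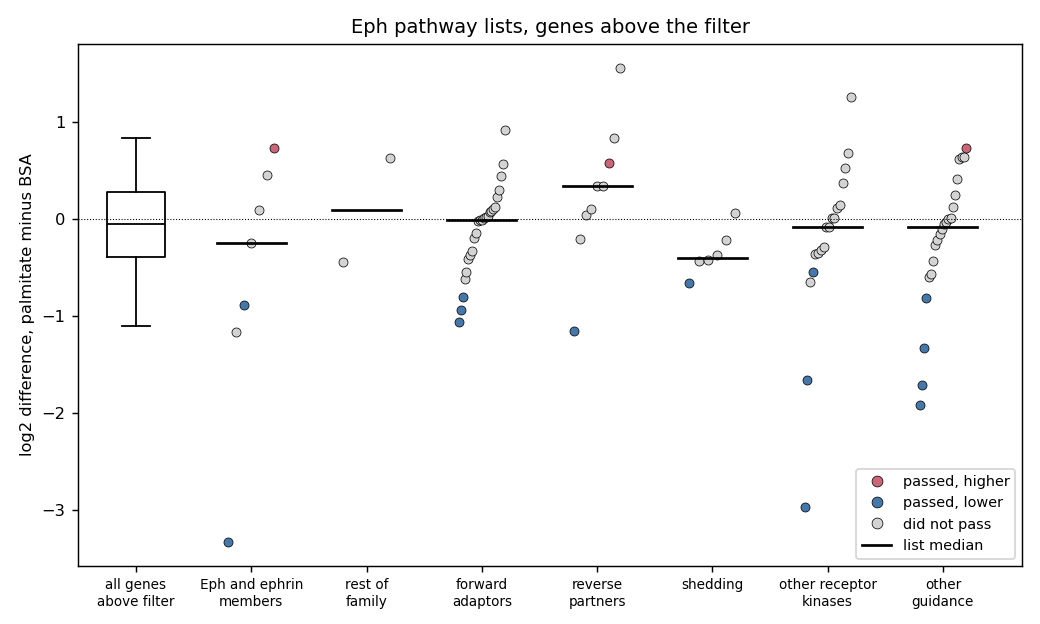
Difference in log2 signal, palmitate minus BSA, of genes above the filter in the member list and 6 other lists (points, with the list median as a bar), beside a box plot of all 7931 genes tested (box from the 25th to the 75th percentile, whiskers from the 5th to the 95th). Ephb6 and Pdgfrb are the lowest points.

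Of 18 other receptor tyrosine kinases above the filter, 3 fell and 0 rose, or 16.7% against 20.2% of all genes, with a median of -0.083. Those that fell were Pdgfrb (-2.97 ± 0.19, limma adjusted p = 2.45e-06) and Pdgfra (-1.67 ± 0.32, limma adjusted p = 0.00377), receptors of platelet-derived growth factor, and the fibroblast growth factor receptor Fgfr1 (-0.55 ± 0.17, limma adjusted p = 0.0372). Of 22 genes of the semaphorin, plexin, netrin and slit guidance systems, 4 fell and 1 rose, or 22.7% against the same 20.2%. Both shares are near that of all genes. Sema3a (-1.71 ± 0.27, limma adjusted p = 0.00107), Slit2 (-1.34 ± 0.23, adjusted p = 0.00179) and its receptor Robo1 (-1.92 ± 0.38, adjusted p = 0.00461) had the smallest p among the falls, and Sema7a rose (0.73 ± 0.20, adjusted p = 0.0249). The call of Sema7a was lost after hybridisation control scaling (0.47, adjusted p = 0.125), that of Fgfr1 in 10 of 16 alternatives (adjusted p up to 0.472, with its probe sets averaged) and that of Sema3a with its probe sets averaged (-1.22, adjusted p = 0.105). Sema7a lost its call in 7 of 15 alternatives in all, with adjusted p up to 0.252.

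Genes listed as markers of fibroblasts also fell with palmitate in these C2C12 cultures. Of 6 such markers, 4 lay above the filter and limma called all 4 lower (Col1a1, Col3a1, Dcn and Pdgfra), against 12.3% of all genes. Pdgfra is also among the receptor kinases above. Thy1 and Lum were dim, with differences of -1.43 ± 0.73 and -0.08 ± 1.15 in the fit of all probe sets. The summed signal of the 6 was 62431 to 76989 on the BSA arrays and 15629 to 20724 on the palmitate arrays. Most of that sum was Col3a1, at a mean of 53210 with BSA and 14425 with palmitate. The part of these markers in the Eph values was not tested. With limma, markers of undifferentiated myoblasts gave 0 calls among 4 above the filter, also at an unadjusted p under 0.05. The summed signal of 6 markers was 10125 to 12383 with BSA and 8021 to 9744 with palmitate. Of markers of endothelial cells, a well known site of Ephb4 and Efnb2, 0 of 7 lay above the filter (summed 543.7 to 674.8 with BSA and 489 to 1081 with palmitate). Immune markers had 1 of 5 above the filter, adipocyte markers 0 of 4 and neural markers 2 of 3, with 0 calls by limma (0 at an unadjusted p under 0.05).

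By likeness of pattern over the 6 arrays, the genes nearest to Ephb6 were Gas1, a growth arrest gene, Prelp, a matrix proteoglycan, and Bicc1, an RNA-binding protein. The root mean square difference of their centred log2 signals from that of Ephb6 was 0.30, 0.48 and 0.50, against a median of 1.75 over 7930 genes. Those nearest to Epha2 were Snhg8, a host gene of small nucleolar RNAs, Orc2, a subunit of the origin recognition complex, and Nop56 of the nucleolus (0.059, 0.073 and 0.074, against a median of 0.49). The group difference dominates this measure, so it ranks mainly genes with a similar difference.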

How the data were processed

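Transcripts of 6 samples, 3 per group, were measured on Affymetrix mouse 430A 2.0 arrays, according to the design text of the series. The authors deposited linear signal intensities, and the submitters' processing notes name MAS 5 as the tool. Its settings are not given in the sources used here, and neither detection calls nor scan dates entered the analysis. The trimmed mean (2% from each end) was 1500.5 to 1500.56 on every array, so the authors' deposited intensities had been scaled to equal average signal, which hides a shift of most transcripts in the same direction. The number of arrays limits the precision.

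Of 22626 probe sets that were not controls, 20380 had 1 symbol, 691 several and 1555 none. All 10 members matched the RefSeq gene table by symbol. Log2 signals without offset were fitted with limma 3.58.1 in R 4.3.3 (lmFit, eBayes with trend, two-sided, Benjamini-Hochberg over 13575 probe sets); the fit was tested on simulated data. No set test was run. The members, the lists and the rules were chosen with earlier results of these data known. Named genes were all members and measured family genes, the called genes of each pathway list (up to 4 per direction in longer lists), up to 3 per direction of the other kinases and guidance genes, the markers, and the nearest genes by pattern. Psen2 and Ncstn were named after their values were seen. One further pathway list is not reported here and was left out of the pathway totals. Alternatives were the filter, the offset, the scaling, the trend, averaged probe sets, the replicate block and leaving out each array. The second set of hybridisation controls was added after the data were seen. Same-numbered arrays did not deviate together (correlations of deviations from group means -0.23, -0.13 and 0.0091), so they were not treated as pairs.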

Additional observations from a re-analysis of the deposited data

How the results depend on the processing

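Counts of calls are given as higher and lower. Over the 13575 probe sets tested there were 1172 and 1437. Scaling to the hybridisation controls gave 546 and 2749 (16.6% of calls higher, against 44.9%). Scaling to a second set of such controls, added after the data were seen, gave 404 and 3169. The 9 control probe sets of each set were brighter with palmitate (12.54 ± 0.10 against 12.28 ± 0.08 in log2, SD, n = 3, for the first). By their names both sets read bio and cre transcripts, so the second scaling is not independent of the first. Averaging the probe sets of each gene gave 696 and 818 genes, where the brightest probe set alone gave 628 and 974. Leaving out 1 array gave 746 to 1085 and 833 to 1282, lowest without BSA replicate 2 (746 and 833). For the members there was 1 higher (Epha2) and 2 lower (Ephb3, Ephb6). The higher count was 0 under both control scalings, and the lower count was 1 without the filter, with the filter at the 60th percentile (where Ephb6 was not tested) and without the trend. Leaving out 1 array kept 1 higher and gave 1 to 3 lower. The call of Ephb6, which passed the filter through its BSA signal, was kept in all 15 alternatives in which it was tested. Fits that left out 1 array kept the filter set on all arrays, so that count is not independent support for the fall. For the other pathway genes (1 higher, 5 lower), the higher count was 2 under median scaling and quantile normalization and 0 under both control scalings, without the trend, with averaged probe sets and with the replicate block. Their lower count was 3 without the filter, 2 with the stricter filter, 7 and 8 under the control scalings, 2 without the trend, 1 with averaged probe sets and 2 with the replicate block. Leaving out 1 array gave 0 to 2 and 2 to 4. The cause of these shifts was not tested. Reversals were those of Epha4 without palmitate replicate 1 (0.45, and -0.81 without palmitate replicate 2), of Efna1, dim and not tested, without palmitate replicate 1 (0.092, and -2.57 without palmitate replicate 2), and of Efnb1 under the control scalings (-0.16 and -0.24), none of them called, and, among the called pathway genes, of Adam10 with averaged probe sets (0.025). With the replicate number as a block, 1973 probe sets passed in place of 2609, and the member calls were 1 higher and 2 lower. No BSA array (0 of 3) had deviations closest to those of the palmitate array with its number. Dim probe sets, for which detection was not known, limit what can be said of Epha7, Efna1 and most of the rest of the family.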
